A study of Mus musculus with 15 samples.

Results

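Type I interferon-stimulated effector genes were followed in single-cell RNA-seq of mouse brain microglia. The genes were listed by name, as antiviral effectors that type I interferon induces in many cell types, and were chosen with earlier results of these data known. All 50 listed genes were among the 32372 genes of the deposited count matrix, and all 50 passed the filter on low counts that left 14260 genes for testing. An antibody was given to hTfR KI mice, in which part of the human transferrin receptor is knocked in, as 1 dose of 10 mg/kg, and microglia of cortex and hippocampus were isolated by CD45 selection at 1, 7, 14 or 28 days. All mice were male, of the C57BL/6J strain and 3.5 months old. ATV:4D9 is an antibody to TREM2, a microglial receptor for lipids, fitted with a transport vehicle (ATV) that binds the human transferrin receptor. ATV:RSV carries the same vehicle without TREM2 binding and served as the control. The 5 groups of 3 mice were the day 1 ATV:RSV controls and mice taken 1, 7, 14 or 28 days after ATV:4D9. Each mouse gave 1 library, and mice 1, 2 and 3 of a group came from the 3 processing batches, each of which held all 5 conditions. The control was taken at day 1 alone, so days 7, 14 and 28 had no control of their own day. A further control animal named in the labels was not analysed here.

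The files held 102043 cells, with 5667 to 7596 cells a mouse and 707518630 unique molecular identifiers (UMIs, each standing for 1 counted mRNA molecule). Counts of a gene were summed over the cells of a mouse and are given as CPM, a count divided by the library total and multiplied by 1000000, where the total is that mouse's UMIs scaled by the trimmed mean of M-values (TMM). The libraries read the 3′ ends of transcripts, so levels are compared between mice and not between genes. Of 100747 distinct cell barcodes 1283, or 1.27%, occurred in more than 1 library. Of all cells, 101925 had UMIs of at least 3 of 8 microglia markers. Day 1 cells held a median of 8202 to 8996 UMIs against 4975 to 5750 in the controls. The median share of mitochondrial UMIs was 3.11% to 3.38% in the controls, 3.96% to 4.50% at day 1, 3.49% to 4.04% at day 7, 3.13% to 3.64% at day 14 and 3.25% to 3.62% at day 28, and the part of this shift in the results was not tested. A UMI of the cell cycle genes Mki67 or Top2a was found in 19.6% to 27.4% of day 1 cells against 0.397% to 0.684% of control cells. Control mouse 1 stood apart from the other controls. It held the highest value of its group in 45 of the 50 genes, at a median of 1.41 times the mean of control mice 2 and 3 (range 0.922 to 16.4), and at 2 times or more in 18 genes. Counts of calls and medians over all cells that turn on it are given with and without it. The highest and lowest values at days 7, 14 and 28 are given with it alone. So are the counts of values above or below 0, of groups that do not overlap and of unadjusted p-values. The median and the falls within cluster 2 at day 1 are given with it alone.

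Type I interferons bind a receptor of the chains IFNAR1 and IFNAR2, whose kinases JAK1 and TYK2 phosphorylate factors of the STAT family. These join IRF9 in a complex that binds the interferon-stimulated response element (ISRE) in promoters and switches on a large group of genes. The proteins they encode block steps of viral growth, sense viral nucleic acid or feed back on the pathway, and microglia are known for a strong interferon response in the brain.

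Promoter stretches are shown for 9 of the genes because the ISRE core is the element through which this gene class is known to be driven. The search took 10 letters, GAAA, any 2 bases and GAAA, or TTTC, any 2 bases and TTTC for the other strand, where matches may overlap, in the 250 bases before and 50 bases after each start site that RefSeq gives for GRCm38.p6. Of 32851 promoters, 3.44% held a match, and of 27025 genes 3.99% had at least 1 such promoter. Among the 50 interferon-stimulated genes 38 had a promoter in the table, and 20 of these 38, or 52.6%, held a match. The other 12 (Mx1, Mx2, Dhx58, Zbp1, Parp9, Oas2, Tor3a, Ifi204, Parp14, Rtp4, Ifi27l2a and Usp18) had no entry. Each stretch is written 5′ to 3′ along the gene, and capitals mark the matches. Isg15, Ifit1, Ifit3, Ifit3b, Oas1a, Bst2, Rsad2 and Ifi211 stand for genes that rose by over 2-fold at day 1, and Slfn8 for a gene whose promoter holds a match while its level moved little.
Isg15 promoter, chr4:156200819-156200938, minus strand, 120 to 1 bases before the start: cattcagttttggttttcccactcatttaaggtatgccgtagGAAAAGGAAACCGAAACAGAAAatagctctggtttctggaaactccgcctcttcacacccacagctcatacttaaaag
Ifit1 promoter, chr19:34640769-34640888, plus strand, 120 to 1 bases before the start: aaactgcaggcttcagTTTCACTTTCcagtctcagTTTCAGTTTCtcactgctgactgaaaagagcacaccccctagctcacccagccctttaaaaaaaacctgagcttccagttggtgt
Ifit3 promoter, chr19:34583359-34583478, plus strand, 170 to 51 bases before the start: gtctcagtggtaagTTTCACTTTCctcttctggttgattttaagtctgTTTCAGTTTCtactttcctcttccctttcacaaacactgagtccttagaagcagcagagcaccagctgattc
Ifit3b promoter, chr19:34607755-34607874, plus strand, 202 to 83 bases before the start: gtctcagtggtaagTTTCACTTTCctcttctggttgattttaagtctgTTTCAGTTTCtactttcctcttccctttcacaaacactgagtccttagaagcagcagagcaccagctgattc
Oas1a promoter, chr5:120907526-120907605, minus strand, 80 to 1 bases before the start: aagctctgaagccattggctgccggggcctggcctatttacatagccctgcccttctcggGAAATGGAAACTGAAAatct
Bst2 promoter, chr8:71537543-71537622, minus strand, 150 to 71 bases before the start: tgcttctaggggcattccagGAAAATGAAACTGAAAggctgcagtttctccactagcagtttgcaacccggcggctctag
Rsad2 promoter, chr12:26456533-26456612, minus strand, 160 to 81 bases before the start: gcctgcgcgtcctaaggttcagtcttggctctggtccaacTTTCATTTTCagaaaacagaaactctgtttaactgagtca
Ifi211 promoter, chr1:173913047-173913126, minus strand, 80 to 1 bases before the start: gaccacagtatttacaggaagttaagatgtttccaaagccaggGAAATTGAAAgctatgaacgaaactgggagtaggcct
Slfn8 promoter, chr11:83020811-83020890, minus strand, 80 to 1 bases before the start: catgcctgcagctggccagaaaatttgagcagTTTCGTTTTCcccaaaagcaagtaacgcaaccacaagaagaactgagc
The stretches of Ifit3 and Ifit3b, neighbouring copies on chromosome 19, were identical at 120 of 120 bases. A match is a run of letters and not a measured binding site. The 20 genes with a match had a median day 1 log2 fold change of 3.59 (range 0.20 to 5.77), and the 18 without a match had one of 2.28 (range 0.14 to 5.37), so the ranges overlapped over most of their length.

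One day after ATV:4D9 the interferon-stimulated genes stood far above control, and the highest log2 fold changes were those of Ifi211, Rsad2 and Oasl1. Of the 50 genes, 49 rose (limma-voom with Benjamini-Hochberg adjustment over 14260 genes, adjusted p under 0.05), 43 of them by 2-fold or more. Over all genes, 34.7% were called higher at day 1. In Ifi211, Oas3 and Ifi44 control mice 2 and 3 lay under the filter's minimum count of 10. Their pass rested mainly on the treated mice, so their folds and adjusted p are given as a description. The median log2 fold change of the 50 was 2.87 (range 0.14 to 5.77) against -0.05 over all genes tested. In 49 of the 50 genes all 3 treated mice lay above all 3 controls, which was so in 35.7% of all genes. The p-values measure the spread between mice. Within batches 1, 2 and 3 all 50 genes were higher at day 1, with medians of 2.17, 3.11 and 2.97, batch 1 being that of control mouse 1. Without that control the median was 3.06, 9 genes moved by over 1.5 times and the order changed, with Ifi211 at 6.95, Oas3 at 6.19, Rsad2 at 6.19, Oasl1 at 6.16, Ifi207 at 5.21, Ifi44 at 4.97, Oasl2 at 4.81, Oas2 at 4.78 and Samd9l at 3.54. Without control mouse 2 there were 6 such genes, with Ifi211 at 5.16, Rsad2 at 4.65, Ifi207 at 3.89, Oas3 at 3.71, Ifi44 at 3.42 and Oas2 at 2.81. With library size alone as the scaling the median was 2.63, and there the median of all genes moved to -0.29. The median was 3.06 after leaving out the cells with a UMI of Mki67 or Top2a, and 2.83 after thinning each cell to 3385 UMIs.

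Markers of other cell types also differed at day 1. The summed level of 6 monocyte markers, none of them at 0, was 6.32 to 16.0 CPM in the controls, 31.3 to 35.0 CPM at day 1 and 9.54 to 17.3 CPM at day 7, and that of 6 endothelial markers was 28.4 to 37.7, 52.0 to 67.6 and 24.4 to 31.1 CPM. The markers within these lists did not all move one way, and whether the sums reflect more cells of these types was not tested. Of the 5 monocyte markers that passed the filter 2 were called higher and 1 lower (median log2 fold change 0.99), and of the 6 endothelial markers 2 were called higher and 1 lower (median -0.10). All 6 oligodendrocyte markers and all 6 neuron markers were called lower, with medians of -0.94 and -0.83, and the sum of 6 astrocyte markers, of which 1 was called lower, went from 208 to 257 CPM to 128 to 138 CPM. Of the 6 markers of border-associated macrophages 2 were called higher and 0 lower (median 0.65), with sums of 15.2 to 18.3 CPM in the controls and 17.7 to 27.0 CPM at day 1, which overlapped. Of the 8 microglia markers 6 were called lower and 1 higher, with a median of -0.52. Of 3 plasmacytoid dendritic cell markers that passed the filter 1 was called higher and 1 lower. Their list summed to 258 to 285 CPM in the controls and 195 to 243 CPM at day 1. Of 3 dendritic cell markers 1 was called higher, and of 3 B cell markers 1 was called lower. Over all genes 34.7% were called higher and 34.6% lower at day 1. Cells with UMIs of at least 3 markers of another cell type made up 0.565% to 2.35% of a library. The largest numbers of these were 340 with border-associated macrophage markers and 334 with astrocyte markers. Over all mice 39 cells had at least 3 endothelial markers and 8 had at least 3 monocyte markers. Without all cells with markers of another type 49 genes rose again, with the same median of 2.87.

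**Figure D1:**
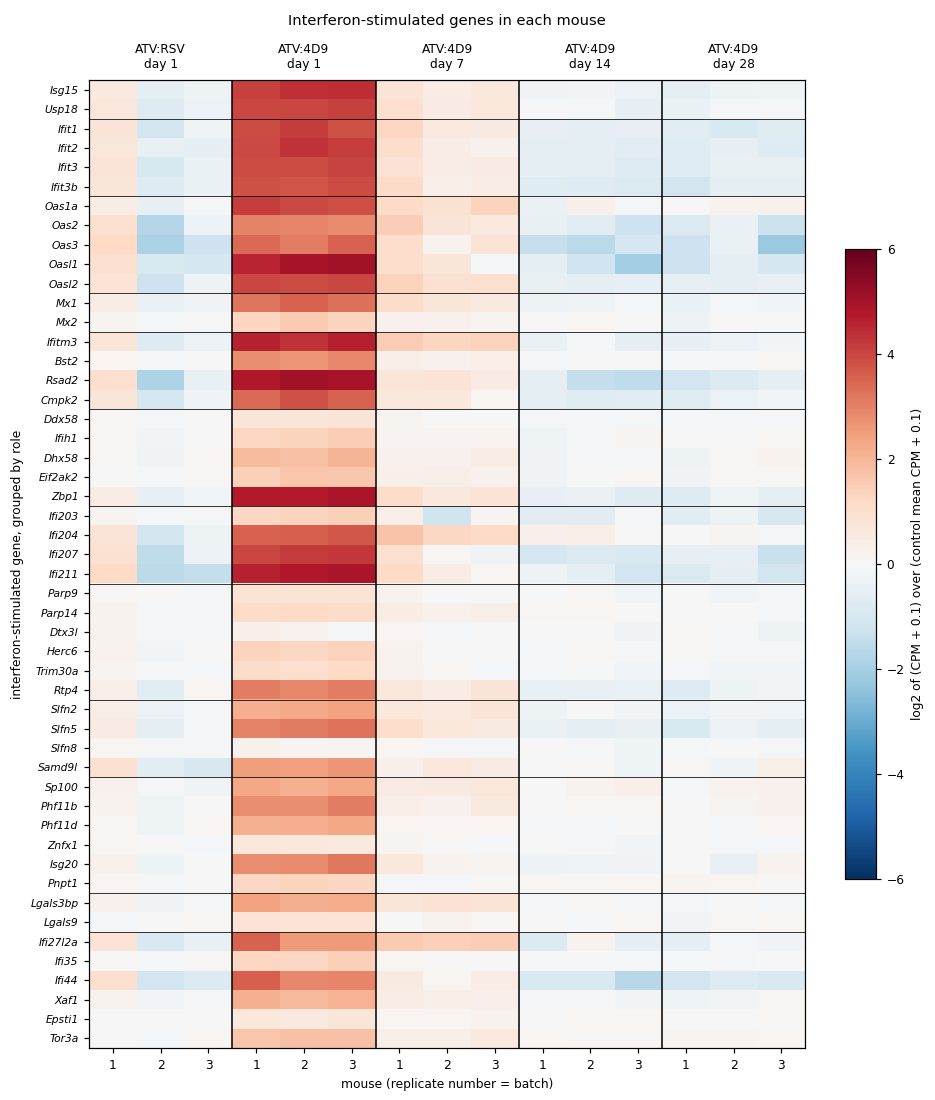
Each row is 1 of the 50 interferon-stimulated genes, grouped by role, and each column is 1 mouse. Colour is the log2 ratio of CPM plus 0.1 to the mean of the 3 control mice plus 0.1. The 3 day 1 columns are red in nearly every row, with a paler band at day 7 and a red first column among the controls.

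The ubiquitin-like modifier ISG15 is joined to other proteins during the interferon response, and USP18 removes it and also damps the receptor. Isg15 stood at 27.0, 12.5 and 14.7 CPM in the controls and at 309, 373 and 392 CPM in the day 1 mice, a log2 fold change of 4.36 (SE 0.184, adjusted p = 1.08e-11). From 6.97, 2.48 and 3.34 CPM in the controls, Usp18 came to 69.5, 70.7 and 75.2 CPM in the day 1 mice (log2 fold change 4.17, SE 0.215, adjusted p = 9.91e-11). Neither gene's groups overlapped, and in both genes the 3 day 1 mice lay closer to each other than the 3 controls did on a ratio scale. The Isg15 promoter printed above held 3 overlapping matches within the same run of capitals.

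The IFIT proteins bind foreign RNA ends and block translation, and the 4 mouse genes measured here lie together at chr19:34550694-34650009 (GRCm38.p6). Ifit1 stood at 5.54, 1.45 and 2.72 CPM in the controls and at 49.6, 60.4 and 47.3 CPM in the day 1 mice, a log2 fold change of 4.17 (SE 0.279, adjusted p = 2.06e-09). Ifit3 came to 180.3, 177 and 194 CPM in the day 1 mice against 20.4, 5.91 and 8.90 CPM in the controls, a difference of 4.12 on the log2 scale (SE 0.246, adjusted p = 5.41e-10). For Ifit3b the levels were 4.52, 1.54 and 2.05 CPM in the controls and 39.3, 38.1 and 41.6 CPM in the day 1 mice, and the log2 fold change was 3.98 (SE 0.238, adjusted p = 5.46e-10). The 4 IFIT genes rose by close amounts, with log2 fold changes between 3.98 for Ifit3b and 4.23 for Ifit2. Ifit3 shared 6.57% of the 90-base windows in its last 500 transcript bases with Ifit3b, so a small part of the counts could be split between them.

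The oligoadenylate synthetases make the signal that activates RNase L, and OASL1 is a relative without that activity. From 2.56, 1.28 and 1.69 CPM in the controls, Oas1a came to 33.9, 30.4 and 28.5 CPM in the day 1 mice (log2 fold change 4.10, SE 0.196, adjusted p = 4.31e-11). Oasl1 stood at 1.43, 0.314 and 0.286 CPM in the controls and at 18.4, 24.1 and 25.7 CPM in the day 1 mice, a log2 fold change of 5.37 (SE 0.478, adjusted p = 5.97e-08). Oasl2 came to 52.7, 49.0 and 52.2 CPM in the day 1 mice against 5.72, 1.30 and 2.53 CPM in the controls, a difference of 4.21 on the log2 scale (SE 0.266, adjusted p = 1.07e-09). Oasl1 had the third highest log2 fold change of the 50 genes. Oas2 and Oas3 were sparse, with 56 and 53 UMIs over all 3 controls. For Oas3 the levels were 0.981, 0.0241 and 0.0954 CPM in the controls and 4.79, 3.77 and 5.35 CPM in the day 1 mice, and the log2 fold change was 4.77 (SE 0.761, adjusted p = 3.99e-05). Control mice 2 and 3 lay under the filter's minimum count of 10, so the fold and adjusted p of Oas3 are a description. Most control UMIs of Oas3 came from control mouse 1, and without that mouse the log2 fold change was 6.19, the highest of the 16 alternative settings, which began at 3.57. Oas1a shared 42.3% of its 3′ windows with Oas1g, a neighbour in the cluster at chr5:120730333-120907521, so its counts are uncertain to that extent.

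The dynamin-like GTPases MX1 and MX2 trap viral particles. Both genes lie at chr16:97447035-97560900, and the annotation lists Mx2 as a polymorphic pseudogene. Mx1 stood at 4.27, 2.34 and 2.67 CPM in the controls and at 29.3, 37.2 and 31.8 CPM in the day 1 mice, a log2 fold change of 3.42 (SE 0.182, adjusted p = 1.41e-10). From 5.68, 4.56 and 4.77 CPM in the controls, Mx2 came to 12.2, 15.2 and 12.7 CPM in the day 1 mice (log2 fold change 1.41, SE 0.112, adjusted p = 1.57e-08). Both rose, and the groups of neither overlapped. Only RNA was measured, so whether either gene yields a working protein in these mice was not tested.

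Among membrane and lipid-associated effectors, IFITM3 blocks viral fusion, tetherin (Bst2) holds budding particles, viperin (Rsad2) makes a chain-terminating nucleotide, and Cmpk2, a nucleotide kinase next to Rsad2 on chromosome 12, supplies its substrate. Ifitm3 stood at 43.0, 15.1 and 20.6 CPM in the controls and at 644, 524 and 662 CPM in the day 1 mice, a log2 fold change of 4.65 (SE 0.236, adjusted p = 8.06e-11). For Bst2 the levels were 174, 149 and 159.7 CPM in the controls and 1119, 1013 and 1201 CPM in the day 1 mice, and the log2 fold change was 2.79 (SE 0.0742, adjusted p = 7.65e-14). Bst2 had the lowest adjusted p of all 50 genes. From 6.42, 0.796 and 2.27 CPM in the controls, Rsad2 came to 91.4, 107 and 99.1 CPM in the day 1 mice (log2 fold change 5.37, SE 0.374, adjusted p = 3.25e-09). Cmpk2 came to 10.9, 14.6 and 11.9 CPM in the day 1 mice against 1.62, 0.410 and 0.811 CPM in the controls, a difference of 3.86 on the log2 scale (SE 0.310, adjusted p = 1.75e-08). Control mouse 1 was the highest control in all 4 genes, and every day 1 mouse lay far above it.

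The role of RNA sensors and the RNA-activated kinase held 5 genes. RIG-I (Ddx58) and MDA5 (Ifih1) detect viral RNA, PKR (Eif2ak2) is a kinase that halts translation on double-stranded RNA, and ZBP1 binds Z-form nucleic acid and triggers cell death. Ddx58 stood at 22.0, 20.0 and 20.7 CPM in the controls and at 35.0, 34.4 and 35.9 CPM in the day 1 mice, a log2 fold change of 0.74 (SE 0.0534, adjusted p = 4.76e-09). Ifih1 came to 36.9, 39.0 and 43.0 CPM in the day 1 mice against 16.7, 13.9 and 16.0 CPM in the controls, a difference of 1.35 on the log2 scale (SE 0.0872, adjusted p = 1.41e-09). From 32.4, 32.3 and 35.3 CPM in the controls, Eif2ak2 came to 91.2, 105 and 102 CPM in the day 1 mice (log2 fold change 1.57, SE 0.0839, adjusted p = 1.44e-10). These 3 genes had tight groups that did not overlap. For Zbp1 the levels were 2.94, 1.47 and 1.88 CPM in the controls and 59.0, 59.1 and 66.2 CPM in the day 1 mice, and the log2 fold change was 4.89 (SE 0.178, adjusted p = 2.2e-12). Zbp1 thus rose 29.7-fold, while the median of the 5 genes of this role was 1.57 on the log2 scale, with LGP2 (Dhx58), a partner of RIG-I and MDA5, at 1.90.

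The PYHIN genes at chr1:173723427-173942672 encode interferon-inducible DNA-binding proteins. Ifi204 stood at 15.2, 4.03 and 7.21 CPM in the controls and at 102, 108 and 119.5 CPM in the day 1 mice, a log2 fold change of 3.80 (SE 0.268, adjusted p = 3.9e-09). From 4.19, 0.700 and 1.67 CPM in the controls, Ifi207 came to 36.9, 41.7 and 43.6 CPM in the day 1 mice (log2 fold change 4.51, SE 0.362, adjusted p = 1.77e-08). Ifi211 came to 15.8, 18.4 and 19.6 CPM in the day 1 mice against 1.39, 0.121 and 0.143 CPM in the controls, a difference of 5.77 on the log2 scale (SE 0.529, adjusted p = 8.43e-08). Control mice 2 and 3 lay under the filter's minimum count of 10, so the fold and adjusted p of Ifi211 are a description. Ifi211 had the highest log2 fold change of the list, on 79 control UMIs of which control mouse 1 gave most, and its value ran from 4.94 to 6.95 over the 16 alternatives, the upper end being the one without that mouse. It shared 59.4% of its 3′ windows with Ifi205 and Mndal, so its counts are uncertain. Ifi203 was sparse, at 45 control UMIs, and rose by 1.56 on the log2 scale (SE 0.335, adjusted p = 0.000637).

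PARP9, PARP14 and DTX3L act together in ADP-ribosylation and ubiquitylation, and their genes lie at chr16:35832874-35972605. With Herc6, a ligase for ISG15, Trim30a, a TRIM ubiquitin ligase, and Rtp4, a regulator of interferon signalling, this role had 6 genes with a median log2 fold change of 1.12, of which 5 rose. Dtx3l stood at 26.5, 20.8 and 21.5 CPM in the controls and at 28.2, 26.2 and 21.6 CPM in the day 1 mice, a log2 fold change of 0.14 (SE 0.118, adjusted p = 0.29). Dtx3l was the only one of the 50 genes that did not pass the test at day 1, its groups overlapped, and its value ran from -0.10 to 0.26 over the 16 alternatives. Its neighbours Parp9 and Parp14 rose by 0.82 and 1.14 on the log2 scale. For Rtp4 the levels were 18.0, 8.66 and 15.4 CPM in the controls and 119, 104 and 120.3 CPM in the day 1 mice, and the log2 fold change was 3.07 (SE 0.179, adjusted p = 4.14e-10). From 87.2, 75.6 and 73.0 CPM in the controls, Trim30a came to 170.1, 158 and 177 CPM in the day 1 mice (log2 fold change 1.10, SE 0.0772, adjusted p = 3.62e-09). Rtp4 had the largest value of the role. Trim30a shared 17.8% of its 3′ windows with Trim30d and Herc6 21.0% with Gm45193, and these counts are uncertain to that extent.

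Schlafen proteins act on tRNA and on cell growth, and their genes form a cluster at chr11:82951349-83070678. Slfn2 came to 152, 159 and 178 CPM in the day 1 mice against 42.4, 26.0 and 31.9 CPM in the controls, a difference of 2.30 on the log2 scale (SE 0.128, adjusted p = 2.34e-10). Slfn8 stood at 47.5, 41.3 and 41.8 CPM in the controls and at 51.5, 49.5 and 48.5 CPM in the day 1 mice, a log2 fold change of 0.20 (SE 0.0718, adjusted p = 0.0242). The change of Slfn8 was small although its groups did not overlap, and 9.49% of its 3′ windows were shared with Slfn9 and Slfn10-ps. The call was lost in 5 of the 16 alternatives, which were those without control mouse 2, without control mouse 3, without day 1 mouse 1, with cells thinned to equal UMIs, and with library size alone as the scaling, where the value turned to -0.045. Slfn5 rose by 3.20 and Samd9l, a growth-restraining antiviral factor, by 2.86 on the log2 scale.

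Among nuclear and RNA-processing proteins all 6 genes rose, with a median of 2.24 on the log2 scale. SP100 is a component of nuclear bodies that restrict viral genomes. From 13.2, 10.6 and 9.74 CPM in the controls, Sp100 came to 56.1, 49.9 and 55.6 CPM in the day 1 mice (log2 fold change 2.27, SE 0.112, adjusted p = 6.42e-11). Phf11b and Phf11d, neighbouring copies on chromosome 14, rose by 2.89 and 2.22, the exonuclease gene Isg20 by 2.95 and the mitochondrial RNA exonuclease gene Pnpt1 by 1.27. For the helicase gene Znfx1 the levels were 47.0, 45.0 and 43.5 CPM in the controls and 71.5, 70.5 and 66.7 CPM in the day 1 mice, and the log2 fold change was 0.62 (SE 0.0581, adjusted p = 1.02e-07). Phf11b shared 22.6% and Phf11d 15.5% of their 3′ windows with each other or other Phf11 copies, so their counts are uncertain to that extent.

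Of the galectin-related pair, LGALS3BP is a secreted glycoprotein that binds galectins and LGALS9 is itself a galectin. Lgals3bp stood at 70.7, 51.2 and 53.3 CPM in the controls and at 315, 266 and 273 CPM in the day 1 mice, a log2 fold change of 2.29 (SE 0.0981, adjusted p = 1.28e-11). For Lgals9 the levels were 98.7, 103 and 111 CPM in the controls and 184, 184 and 186 CPM in the day 1 mice, and the log2 fold change was 0.82 (SE 0.0712, adjusted p = 4.16e-08). In both genes the groups were apart. The remaining 6 genes also rose, between 0.65 for Epsti1 and 4.03 for Ifi44 on the log2 scale. Ifi27l2a came to 288, 148 and 145 CPM in the day 1 mice against 43.3, 12.9 and 18.2 CPM in the controls, a difference of 3.05 on the log2 scale (SE 0.344, adjusted p = 9.33e-07). Ifi27l2a, a small interferon-inducible membrane protein, differed among the day 1 mice more than most, with mouse 1 far above mice 2 and 3. From 21.2, 16.3 and 17.3 CPM in the controls, Xaf1 came to 80.8, 69.8 and 78.7 CPM in the day 1 mice (log2 fold change 2.06, SE 0.0908, adjusted p = 1.79e-11). XAF1 is a pro-apoptotic partner of the inhibitor of apoptosis XIAP.

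**Figure D2:**
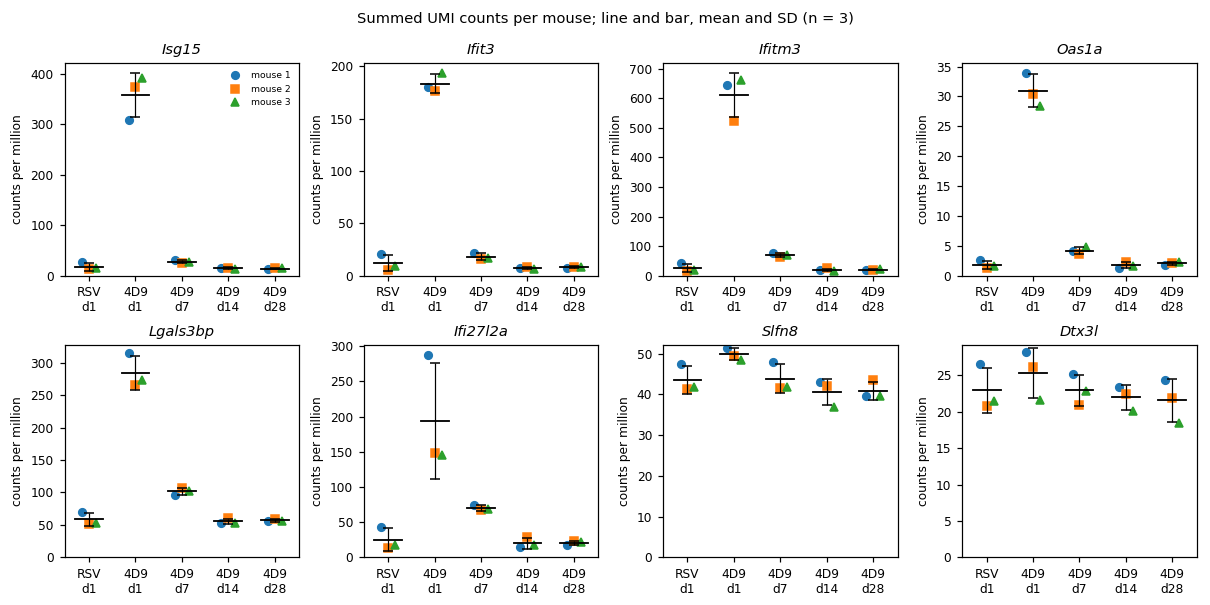
CPM of 8 genes in each mouse (points, 1 marker shape per replicate number) with the group mean and SD (n = 3) on linear axes from 0. Isg15, Ifit3, Ifitm3 and Oas1a are highest at day 1 by far, Lgals3bp and Ifi27l2a also stand above the later groups at day 7, and Slfn8 and Dtx3l are nearly level.

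At day 7 a smaller set was still above control. Of the 50 genes 13 were called higher and 0 lower against the day 1 control, where 2.99% of all genes were called higher. The median log2 fold change was 0.62 against 0.00 over all genes, 48 of the 50 values were above 0, and 5 of the 13 rose by 2-fold or more. In 22 genes all 3 day 7 mice lay above all 3 controls, against 11% of all genes. At an unadjusted p under 0.05 there were 30, against 16.4% of all genes. edgeR's quasi-likelihood test called 13 and DESeq2 17. The count turned on the controls, at 27 without control mouse 1, 6 without control mouse 2 and 7 without control mouse 3, and the medians without mouse 1 and mouse 2 were 0.91 and 0.37. Leaving out day 7 mouse 1 or day 7 mouse 3 left 8 calls, and leaving out the cells with most UMIs gave 21. With the batch as a block for pairing the mice 18 genes were called higher, all 13 among them, with Xaf1, Slfn5, Phf11b, Rtp4 and Eif2ak2 added. Within batches 1, 2 and 3 the medians were 0.20, 0.93 and 0.62, with 43, 48 and 47 of the 50 genes higher. Of the cell type markers at day 7, 2 of 8 for microglia, 1 of 6 for endothelial cells and 1 of 6 for neurons were called lower and 1 of 5 for monocytes higher. Among all genes 0.996% were called lower and 2.99% higher. The sum of 6 neutrophil markers was 3.71 to 133 CPM against 3.76 to 9.26 CPM in the controls, with 0 called. Without the cells with markers of another type 15 genes were called, with a median of 0.63.

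Of the 13 genes 5 held in every one of the 16 alternatives, namely Oas1a, Ifitm3, Slfn2, Lgals3bp and Tor3a. Lgals3bp held 96.2, 107 and 103 CPM in the day 7 mice against 51.2 to 70.7 CPM in the controls (log2 fold change 0.82, SE 0.101, adjusted p = 0.000101). Ifitm3 held 75.6, 63.6 and 68.6 CPM in the day 7 mice against 15.1 to 43.0 CPM in the controls (log2 fold change 1.52, SE 0.246, adjusted p = 0.00136). Oas1a held 4.22, 3.57 and 4.78 CPM in the day 7 mice against 1.28 to 2.56 CPM in the controls (log2 fold change 1.23, SE 0.230, adjusted p = 0.00487). In these 3 genes the lowest day 7 mouse stood above the highest control. Slfn2 held 51.9, 50.5 and 57.3 CPM in the day 7 mice against 26.0 to 42.4 CPM in the controls (log2 fold change 0.69, SE 0.134, adjusted p = 0.0061). Tor3a held 50.4, 50.3 and 58.7 CPM in the day 7 mice against 36.9 to 40.5 CPM in the controls (log2 fold change 0.45, SE 0.0610, adjusted p = 0.000238). TOR3A is an AAA ATPase of the endoplasmic reticulum. All 5 genes were thus apart from the controls in each mouse at day 7.

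The other 8 calls were less stable. Ifi204 held 29.2, 20.9 and 20.1 CPM in the day 7 mice against 4.03 to 15.2 CPM in the controls (log2 fold change 1.54, SE 0.290, adjusted p = 0.0049). Ifi27l2a held 74.5, 67.2 and 68.1 CPM in the day 7 mice against 12.9 to 43.3 CPM in the controls (log2 fold change 1.66, SE 0.354, adjusted p = 0.0129). Bst2 held 208, 191 and 216 CPM in the day 7 mice against 149 to 174 CPM in the controls (log2 fold change 0.35, SE 0.0760, adjusted p = 0.0145). These 3 were called in 15, 14 and 13 of the 16 alternatives. Sp100 held 16.0, 16.2 and 18.3 CPM in the day 7 mice against 9.74 to 13.2 CPM in the controls (log2 fold change 0.60, SE 0.127, adjusted p = 0.0124). Parp14 held 79.8, 71.6 and 75.8 CPM in the day 7 mice against 54.2 to 69.0 CPM in the controls (log2 fold change 0.35, SE 0.0752, adjusted p = 0.0123). Oasl2 held 8.60, 6.19 and 6.32 CPM in the day 7 mice against 1.30 to 5.72 CPM in the controls (log2 fold change 1.32, SE 0.306, adjusted p = 0.0214). Sp100 held in 13 alternatives and Parp14 and Oasl2 in 11 each. Zbp1 held 4.59, 3.26 and 3.75 CPM in the day 7 mice against 1.47 to 2.94 CPM in the controls (log2 fold change 0.90, SE 0.218, adjusted p = 0.0278). Mx1 held 6.71, 5.25 and 4.68 CPM in the day 7 mice against 2.34 to 4.27 CPM in the controls (log2 fold change 0.83, SE 0.217, adjusted p = 0.0442). Zbp1 held in 10 and Mx1 in 9, and both were lost without control mouse 2.

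Isg15 and the IFIT genes, high at day 1, were not among the calls at day 7. Isg15 held 32.1, 24.5 and 27.7 CPM in the day 7 mice against 12.5 to 27.0 CPM in the controls (log2 fold change 0.69, SE 0.203, adjusted p = 0.0729). Usp18 held 8.55, 6.09 and 6.74 CPM in the day 7 mice against 2.48 to 6.97 CPM in the controls (log2 fold change 0.82, SE 0.256, adjusted p = 0.0923). Ifit3 held 21.9, 16.1 and 16.6 CPM in the day 7 mice against 5.91 to 20.4 CPM in the controls (log2 fold change 0.77, SE 0.278, adjusted p = 0.155). Control mouse 1 overlapped the day 7 mice in each of these genes, and all 3 were called without it. The highest value of the list at day 7 belonged to Oas3, which did not pass the test. Oas3 held 0.877, 0.435 and 0.713 CPM in the day 7 mice against 0.0241 to 0.981 CPM in the controls (log2 fold change 2.01, SE 0.875, adjusted p = 0.262). At the other end stood Ifi203, with 0.481, 0.0932 and 0.396 CPM against 0.310 to 0.388 CPM in the controls (log2 fold change -0.25, SE 0.432, adjusted p = 0.833). Pnpt1 held 9.48, 9.67 and 10.6 CPM against 9.31 to 10.9 CPM (log2 fold change -0.03, SE 0.0800, adjusted p = 0.903). Dtx3l held 25.1, 20.9 and 22.9 CPM against 20.8 to 26.5 CPM (log2 fold change 0.00, SE 0.125, adjusted p = 0.996).

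**Figure D3:**
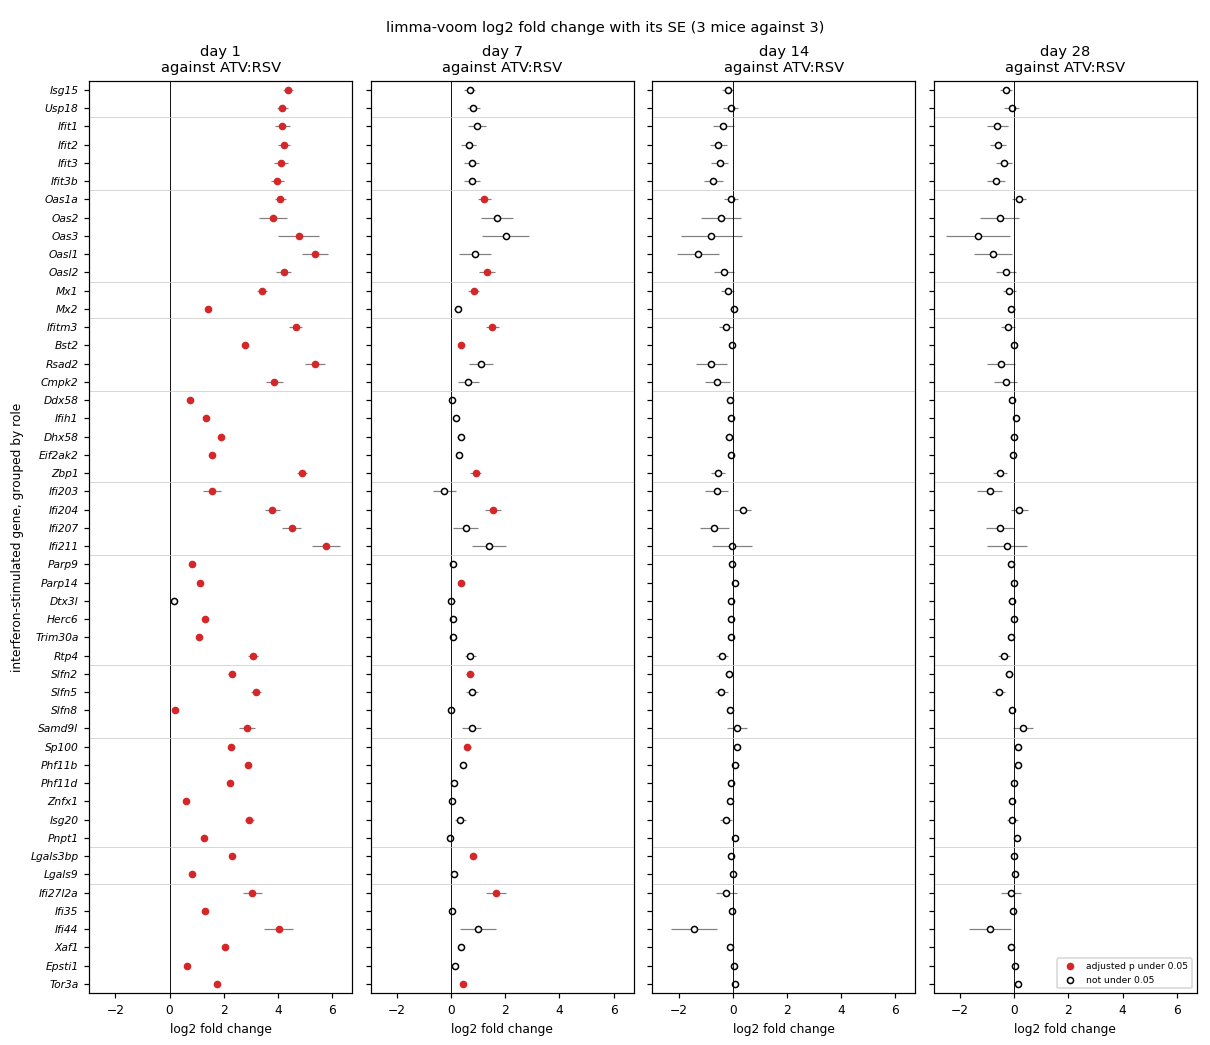
Log2 fold changes of the 50 genes with their standard errors (limma-voom) in 4 panels, for days 1, 7, 14 and 28 against ATV:RSV, on a shared axis. Genes past an adjusted p of 0.05 are red, which are 49 at day 1, 13 at day 7 and 0 at days 14 and 28.

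By days 14 and 28 no interferon-stimulated gene differed from the control by the test. At day 14 limma-voom called 0 of the 50 genes, with 0.4% of all genes called, and 1 of the 50 had an unadjusted p under 0.05, against 5.40% of all genes. edgeR and DESeq2 also called 0, with 8 and 6 genes at an unadjusted p under 0.05 (5.63% and 4.92% of all genes), and with the batch block there were 0 and 5 (7.90% of all genes). The median was -0.10, with 9 values above 0 and 41 below, and the batches differed, with medians of -0.63, 0.21 and -0.08 and 2, 44 and 18 of the 50 genes higher in batches 1, 2 and 3. At day 28 limma-voom called 0 of the 50, with 0% of all genes called, and 2 had an unadjusted p under 0.05, against 4.00% of all genes. There edgeR and DESeq2 called 0 with 7 and 8 at an unadjusted p under 0.05 (4.22% and 3.50% of all genes), the block gave 0 and 8 (6.49% of all genes), and the median was -0.11, with -0.60, 0.23 and 0.00 in batches 1, 2 and 3. Both medians changed sign without control mouse 1, to 0.037 at day 14 and 0.065 at day 28. The highest log2 fold changes were 0.36 for Ifi204, 0.17 for Samd9l and 0.16 for Sp100 at day 14, and 0.32 for Samd9l, 0.19 for Ifi204 and 0.18 for Oas1a at day 28. The lowest were -1.43 for Ifi44, -1.28 for Oasl1 and -0.80 for Oas3 at day 14, and -1.35 for Oas3, -0.91 for Ifi203 and -0.89 for Ifi44 at day 28, and these had few UMIs in every late mouse. In Oas3, Ifi44 and Oasl1 control mouse 1 held 16.4, 6.83 and 4.77 times the mean of control mice 2 and 3. These extremes are not given without that mouse.

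The levels of single genes show how close the late groups came to the controls. Isg15 stood at 15.5, 16.3 and 13.9 CPM in the day 14 mice and 12.5, 14.7 and 14.9 CPM in the day 28 mice. Ifitm3 stood at 20.1, 24.5 and 17.2 and 18.5, 20.3 and 23.4 CPM, and Lgals3bp at 53.0, 60.4 and 53.7 and 55.5, 59.6 and 55.9 CPM. All 3 genes overlapped the control mice at both days. Tor3a was the 1 gene of the 50 with all 3 mice above all 3 controls at day 14 and again at day 28, which was so in 5.29% and 4.59% of all genes, at 42.8, 40.8 and 41.1 CPM and 43.2, 43.0 and 42.8 CPM against 39.3, 36.9 and 40.5 CPM, and its log2 fold changes of 0.10 and 0.15 were not called. All 3 mice lay below all 3 controls in 2 of the 50 genes at day 14 and in 1 at day 28, against 5.16% and 4.34% of all genes.

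The change from day 1 to day 7 was tested directly. Lower levels at day 7 than at day 1 were called in 49 of the 50 genes, again all but Dtx3l, and 33.9% of all genes were called lower. The median was -2.12, and within batches 1, 2 and 3 it was -1.94, -2.27 and -2.23. The largest drops were -4.48 for Oasl1 (SE 0.383, adjusted p = 4.28e-08), -4.37 for Ifi211 and -4.29 for Rsad2 on the log2 scale, the 3 genes with the highest day 1 values. By role, Isg15 and Usp18 changed by -3.67 and -3.35, and Ifit1, Ifit2, Ifit3 and Ifit3b by -3.21, -3.59, -3.35 and -3.20. Oas1a, Oas2, Oas3 and Oasl2 were at -2.87, -2.13, -2.76 and -2.89, Mx1 and Mx2 at -2.59 and -1.17, and Ifitm3, Bst2 and Cmpk2 at -3.13, -2.44 and -3.23. Every one of these genes was lower in all 3 day 7 mice than in any day 1 mouse. Of the sensors, Zbp1 was at -3.99, Dhx58 at -1.55, Eif2ak2 at -1.27, Ifih1 at -1.18 and Ddx58 at -0.70. The PYHIN genes Ifi207, Ifi204 and Ifi203 were at -3.96, -2.26 and -1.81, and Rtp4, Herc6, Trim30a, Parp14 and Parp9 at -2.37, -1.26, -1.02, -0.78 and -0.74. Slfn5, Samd9l and Slfn2 were at -2.41, -2.11 and -1.61, and the nuclear genes ran from -2.61 for Isg20 to -0.58 for Znfx1. Lgals3bp and Lgals9 were at -1.48 and -0.73, and Ifi44, Xaf1, Ifi27l2a, Ifi35 and Tor3a at -3.03, -1.70, -1.39, -1.28 and -1.28. The smallest values were -0.50 for Epsti1, -0.19 for Slfn8 and -0.14 for Dtx3l (adjusted p = 0.313).

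How much of the day 1 rise remained at day 7 differed among genes. Taken as the share of the rise in mean CPM, a median of 6.72% was left over the 49 genes that rose (range -2.01% to 26.7%). For Ifi27l2a 26.7% was left, with 12.7% in batch 1, that of control mouse 1, and 40.3% and 39.4% in batches 2 and 3. For Parp14 it was 22.9% (18.6%, 21.3% and 28.2%) and for Lgals3bp 19.3% (10.5%, 26.1% and 22.6%). Epsti1, a stromal interaction factor, had 19.3% left (16.9%, 17.2% and 22.7%), Tor3a 15.7% (13.2%, 13.9% and 20.1%) and Slfn2 15.3% (8.65%, 18.3% and 17.4%). Isg15 had 2.95% left (1.81%, 3.32% and 3.44%) and Ifi207 1.73% (0.512%, 3.91% and 0.554%). Batch values of the first 6 genes overlapped in part. These shares use the same controls as the folds and carry no test.

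From day 7 to day 14 14 of the 50 genes fell, against 0.856% of all genes called lower, with a median of -0.71 over the 50 and 49 of 50 values below 0. In 38 genes all 3 day 14 mice lay below all 3 day 7 mice, which was so in 7.69% of all genes. The fold changes compare day 7 and day 14 mice alone. The spread behind the p-values was estimated over all 15 mice, the controls among them. edgeR called 15 and DESeq2 27, the batch block gave 19 with Ifi204, Dhx58, Eif2ak2, Ifit2 and Ifit3 added, and leaving out 1 mouse of either group gave 3 to 8. Within batches the medians were -0.96, -0.56 and -0.69.
From 75.6, 63.6 and 68.6 CPM in the day 7 mice, Ifitm3 came to 20.1, 24.5 and 17.2 CPM in the day 14 mice (log2 fold change -1.77, SE 0.252, adjusted p = 0.00348). Lgals3bp stood at 96.2, 107 and 103 CPM in the day 7 mice and at 53.0, 60.4 and 53.7 CPM in the day 14 mice, a log2 fold change of -0.88 (SE 0.101, adjusted p = 0.000983). Both held in all 16 alternatives. For Zbp1 the levels were 4.59, 3.26 and 3.75 CPM in the day 7 mice and 1.48, 1.56 and 1.17 CPM in the day 14 mice, and the log2 fold change was -1.46 (SE 0.239, adjusted p = 0.00879). Slfn2 came to 26.8, 34.1 and 30.2 CPM in the day 14 mice against 51.9, 50.5 and 57.3 CPM in the day 7 mice, a difference of -0.82 on the log2 scale (SE 0.135, adjusted p = 0.00879). These held in 15 alternatives. Tor3a stood at 50.4, 50.3 and 58.7 CPM in the day 7 mice and at 42.8, 40.8 and 41.1 CPM in the day 14 mice, a log2 fold change of -0.36 (SE 0.0606, adjusted p = 0.0112). From 4.22, 3.57 and 4.78 CPM in the day 7 mice, Oas1a came to 1.38, 2.30 and 1.70 CPM in the day 14 mice (log2 fold change -1.30, SE 0.231, adjusted p = 0.0129). Ifi27l2a came to 14.2, 28.7 and 17.3 CPM in the day 14 mice against 74.5, 67.2 and 68.1 CPM in the day 7 mice, a difference of -1.89 on the log2 scale (SE 0.362, adjusted p = 0.0185). Every day 14 mouse lay below every day 7 mouse in all 7 genes.

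The other 7 calls had adjusted p between 0.0184 and 0.0435. For Oasl2 the levels were 8.60, 6.19 and 6.32 CPM in the day 7 mice and 2.29, 2.09 and 2.22 CPM in the day 14 mice, and the log2 fold change was -1.64 (SE 0.322, adjusted p = 0.0216). Rtp4 stood at 22.8, 19.2 and 24.3 CPM in the day 7 mice and at 10.3, 10.2 and 10.5 CPM in the day 14 mice, a log2 fold change of -1.10 (SE 0.210, adjusted p = 0.0184). From 14.7, 10.7 and 10.1 CPM in the day 7 mice, Slfn5 came to 5.30, 4.66 and 5.04 CPM in the day 14 mice (log2 fold change -1.20, SE 0.232, adjusted p = 0.0193). In these 3 genes the day 14 mice came close to each other and well under the day 7 mice. Ifit3b stood at 6.11, 3.64 and 3.69 CPM in the day 7 mice and at 1.58, 1.54 and 1.43 CPM in the day 14 mice, a log2 fold change of -1.50 (SE 0.327, adjusted p = 0.0425). Mx1 came to 2.49, 2.62 and 2.91 CPM in the day 14 mice against 6.71, 5.25 and 4.68 CPM in the day 7 mice, a difference of -1.02 on the log2 scale (SE 0.223, adjusted p = 0.0435). For Xaf1 the levels were 25.2, 23.0 and 22.6 CPM in the day 7 mice and 17.2, 17.2 and 16.3 CPM in the day 14 mice, and the log2 fold change was -0.48 (SE 0.102, adjusted p = 0.0363). The lowest day 7 mouse was above the highest day 14 mouse in each of them. From 208, 191 and 216 CPM in the day 7 mice, Bst2 came to 149, 159.7 and 159.8 CPM in the day 14 mice (log2 fold change -0.39, SE 0.0761, adjusted p = 0.0203). The drops of Bst2 and Tor3a were the smallest of the 14 calls. Oas3, Ifi44 and Oasl1 had the lowest values, at -2.81, -2.43 and -2.17, and were not called. Pnpt1 at 0.11, Ifi35 at -0.06 and Dtx3l at -0.07 had the highest.

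In the control and day 7 groups 1 mouse held the highest value of most genes. Control mouse 1 was the highest of its group in 45 genes, mouse 2 in 0 and mouse 3 in 5, and the median coefficient of variation over the 50 genes was 22.7%. In the day 7 group mouse 1 was highest in 34 genes, mouse 2 in 6 and mouse 3 in 10, with a median coefficient of variation of 10.6%. At day 1 the counts were 11, 10 and 29, at day 14 they were 15, 21 and 14, and at day 28 they were 11, 17 and 22, with medians of 7.92%, 7.33% and 11.2%. Mouse 1 of the control and day 7 groups belonged to batch 1.

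The 50 genes together made up 0.136%, 0.105% and 0.113% of the UMIs of the 3 control mice and 0.505%, 0.479% and 0.508% at day 1. At day 7 the share was 0.141% to 0.151%, at day 14 it was 0.104% to 0.112% and at day 28 it was 0.107% to 0.113%. To compare single cells at equal depth each cell was thinned to 3385 UMIs, which left out 10204 cells with fewer and kept 4710 to 7070 cells a mouse. The loss was uneven. Controls held 6487 to 7020 cells a mouse before thinning and 5585 to 6410 after. At day 1 these were 5998 to 7343 and 5651 to 6993, and at day 7 they were 5667 to 7596 and 4710 to 7070. Thinned values thus leave out more cells of low depth in some groups than in others. The median cell then held 3 UMIs of the 50 genes in every control mouse, 8 to 9 at day 1, 3 to 4 at day 7 and 3 at days 14 and 28. The 90th percentile was 6 to 7 UMIs in the controls, 37 to 39 at day 1 and 8 at day 7. Of the thinned cells 62.8% to 67.1% had UMIs of at least 5 of the 50 genes at day 1, against 16.6% to 20.6% in the controls and 25.5% to 27.3% at day 7. At least 10 of the 50 genes were found in 3.26%, 1.16% and 1.89% of the cells of control mice 1, 2 and 3, in 27.6% to 30.7% at day 1, in 3.44% to 4.64% at day 7, in 1.19% to 1.57% at day 14 and in 1.27% to 1.58% at day 28. Without thinning these shares were 6.55% to 11.9% in the controls and 55.8% to 61.6% at day 1. The top 1% of cells held 13.6% of the genes' UMIs in control mouse 1, 8.78% in mouse 2 and 9.13% in mouse 3, against 7.54% to 7.98% at day 1 and 11.2% to 14.4% at day 7. The high values of control mouse 1 thus came with more UMIs in few cells, its 99th percentile being 32 UMIs a cell against 15 and 19 in the other controls.

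**Figure D4:**
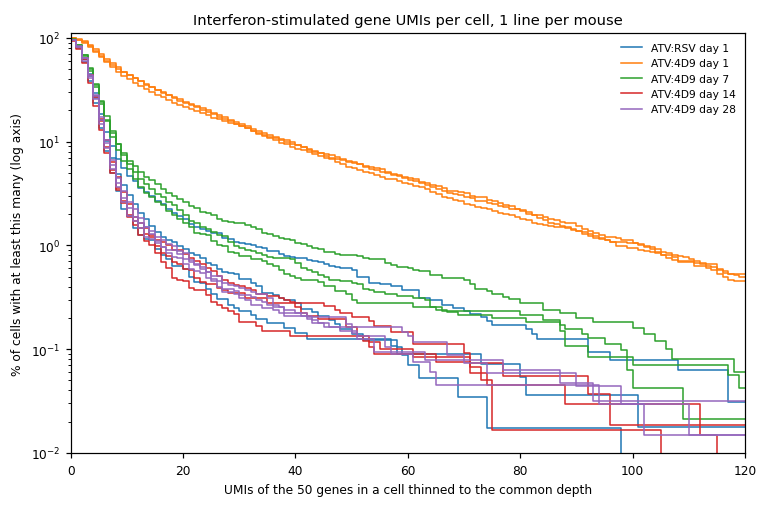
Percent of thinned cells (log axis) that held at least the number of UMIs of the 50 genes given on the x axis, 1 line per mouse, coloured by group. The 3 day 1 lines run far to the right of all others, the day 7 lines lie just above the late groups, and control mouse 1 runs with the day 7 lines.

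Single genes showed the same in shares of cells. Isg15 was found in 3.17% to 4.73% of thinned control cells, 27.6% to 32.2% at day 1 and 5.18% to 5.85% at day 7. Ifitm3 was found in 2.99% to 6.65%, 43.6% to 48.2% and 11.3% to 11.8%, and Ifi27l2a in 2.52% to 6.21%, 19.3% to 32.5% and 12.9% to 14.2%. Lgals3bp went from 15.3% to 18.6% of control cells to 46.4% to 53.9% at day 1, Slfn2 from 7.02% to 10.6% to 30.8% to 34.3%, and Slfn8 from 12.9% to 14.8% to 12.2% to 14.2%. The day 1 range lay above the control range in all of these genes except Slfn8. Too few cells of another type were present to give a share for cells that lack these genes, so the part of free RNA in the low shares was not tested.

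Isg15 and Ifitm3 were found in a higher share of the cells with Ifit3 than of the other cells in every mouse. Ifit3 was detected in 65 to 150 thinned cells of a control mouse, 1053 to 1227 at day 1 and 112 to 190 at day 7. In the controls Isg15 was found in 21.5% to 44.0% of cells with Ifit3 and in 2.74% to 3.79% of the others. At day 1 these shares were 71.4% to 77.4% and 18.3% to 21.8%, and at day 7 they were 32.6% to 50.9% and 4.31% to 4.67%. For Ifitm3 they were 24.6% to 52.7% and 2.74% to 5.54% in the controls, 81.5% to 83.9% and 35.5% to 40.6% at day 1, and 56.3% to 57.9% and 9.80% to 10.5% at day 7. In each control mouse most cells with Ifit3 had no UMI of Isg15.

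The deposited cells carried 3 cluster labels, 0, 1 and 2, and each mouse was compared within a cluster. The clusters were formed on expression that includes these genes, so neither their sizes nor their own differences are results, and differences between clusters were not tested. Cluster 2 held 5607 to 6597 cells of a day 1 mouse and 76 to 165 cells of a control mouse, while clusters 0 and 1 held 180 to 555 cells of a day 1 mouse. In cluster 0 18 of the 47 genes that passed the filter rose at day 1 (3.77% of all genes called higher), with a median log2 fold change of 0.88. In cluster 1 30 of 43 rose (6.36% of all genes), with a median of 0.95, and without day 1 mouse 1 the count was 17. In cluster 0 the largest call was Rsad2 at 2.50 (SE 0.352), with Ifit1 at 2.33, Ifit3b at 2.32, Zbp1 at 2.24 and Usp18 at 2.21. In cluster 1 the largest were Ifit3b at 2.96 (SE 0.533), Oasl2 at 2.76 (SE 0.401) and Zbp1 at 2.75 (SE 0.359). Isg15 was at 11.3 to 16.0 CPM in controls and 24.6 to 47.2 CPM at day 1 in cluster 0, and at 6.65 to 9.79 and 16.5 to 32.5 CPM in cluster 1. Ifitm3 went from 10.9 to 28.1 CPM to 58.3 to 80.6 CPM in cluster 0 and from 14.4 to 20.4 CPM to 46.1 to 92.4 CPM in cluster 1. In neither gene did the control and day 1 ranges overlap within these clusters.

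In cluster 2, of the 47 genes that passed the filter 3 rose at day 1 and 9 fell, where 17.5% of all genes were called higher and 19.3% lower. The 9 lower calls were at the share of all genes and the 3 higher calls below it, so the counts are no result about these genes, and the median was -0.32. Bst2 rose by 0.86 (SE 0.157), Ifitm3 by 0.77 (SE 0.238) and Lgals9 by 0.27 (SE 0.0955) on the log2 scale, but edgeR called 1 gene higher, as did the fits without control mouse 2 or control mouse 3. The 9 lower calls ran from -1.49 for Samd9l to -0.42 for Parp9, in the fit that includes control mouse 1. Isg15 stood at 174 to 436 CPM in the control cells of cluster 2 and at 308 to 372 CPM in its day 1 cells, and these ranges overlapped. Ifit3b went from 51.8 to 114 CPM to 36.5 to 39.5 CPM. In thinned cells of cluster 2 the mean was 29.5, 15.7 and 15.7 UMIs of the 50 genes in control mice 1, 2 and 3 and 17.1, 16.2 and 16.7 UMIs at day 1, with medians of 22, 4 and 5 against 10, 8 and 9. At least 10 of the 50 genes were found in 55.5%, 23.2% and 28.0% of the control cells and in 32.2%, 29.5% and 31.9% of the day 1 cells of this cluster. Control mouse 1 was above the day 1 mice in both the mean and the median, and control mice 2 and 3 had lower medians than any day 1 mouse.

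At day 7 the 3 clusters gave 17 calls of 47 genes in cluster 0 (3.08% of all genes called higher), 13 of 43 in cluster 1 (4.12%) and 0 of 47 in cluster 2 (0.482%), with medians of 0.44, 0.37 and 0.26. In cluster 2 edgeR also called 0, and 4 of the 47 genes had an unadjusted p under 0.05, against 9.66% of all genes. In cluster 0 the count was 7 without control mouse 2, 10 without control mouse 3 and 11 without day 7 mouse 3, and in cluster 1 it was 8 without control mouse 2 and 7 without day 7 mouse 3. In cluster 2 it was 2 without control mouse 1. The largest calls in cluster 1 were Ifi27l2a at 2.35, Ifi204 at 1.98, Oasl2 at 1.85 and Ifitm3 at 1.72 on the log2 scale.

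**Figure D5:**
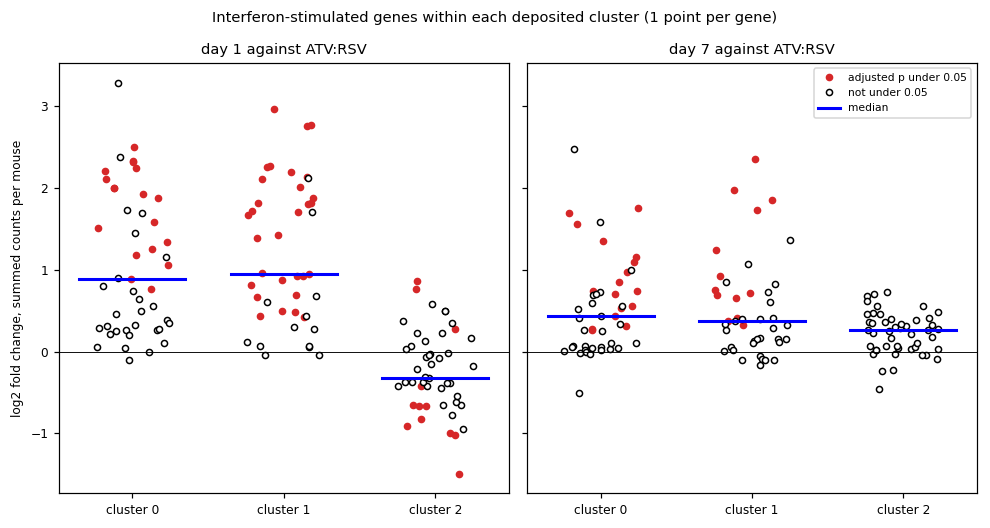
Log2 fold change of each interferon-stimulated gene within clusters 0, 1 and 2 (limma-voom), at day 1 and day 7 against ATV:RSV, with red for genes past an adjusted p of 0.05 and a blue bar for the median. At day 1 the medians are 0.88, 0.95 and -0.32, and at day 7 they are 0.44, 0.37 and 0.26.

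Of a list of 54 genes of the pathway itself 53 were in the matrix and 32 passed the filter. At day 1 12 of these 32 rose, 15 fell and 5 did not pass the test, where 34.7% of all genes were called higher and 34.6% lower, and the median was -0.11 against -0.05 over all genes. Among the ligands only Ifnb1, which encodes interferon beta, passed the filter, with 17, 1 and 1 UMIs in the 3 controls. Control mice 2 and 3 lay under the filter's minimum count of 10, so the pass rested mainly on the treated mice. The fold and adjusted p of this gene are therefore given as a description. Ifnb1 stood at 0.348, 0.0241 and 0.0239 CPM in the controls and at 4.56, 5.60 and 9.69 CPM in the day 1 mice, a log2 fold change of 6.23 (SE 1.31, adjusted p = 0.000533). Without control mouse 1 the value was 7.40, on 1 UMI in each remaining control, and both fitted values depend on the small count that voom adds before taking logs. The day 7 mice held 1.19, 2.21 and 0.119 CPM of Ifnb1, and that difference was not called (adjusted p = 0.348). The other 19 type I and III ligand genes had at most 14 UMIs in any group of 3 mice. Of the receptors, Ifnar1 went from 51.0, 51.8 and 48.9 CPM to 43.6, 46.2 and 43.1 CPM at day 1, a log2 fold change of -0.19 (SE 0.0531, adjusted p = 0.00476). At day 7 it stood at 58.6, 58.3 and 58.3 CPM, a log2 fold change of 0.21 (SE 0.0535, adjusted p = 0.0397). Ifnar2 changed by 0.14 at day 1 (SE 0.0537, adjusted p = 0.0336), which turned to -0.10 with library size alone as the scaling. Ifngr1, a chain of the interferon gamma receptor, was at -0.92 (SE 0.0677, adjusted p = 6.05e-09).

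Of the 9 STAT and IRF factors 5 rose at day 1, Irf7, Stat2 and Irf9 among them, and 4 fell, which were Irf2 at -0.56, Irf3 at -0.40, Irf5 at -0.34 and Irf8 at -0.13. Among all genes 34.7% were called higher and 34.6% lower at that day. From 7.69, 2.68 and 3.51 CPM in the controls, Irf7 came to 72.0, 71.2 and 87.0 CPM in the day 1 mice (log2 fold change 4.15, SE 0.233, adjusted p = 2.63e-10). IRF7 is the factor that amplifies type I interferon production. Stat2 rose by 1.15 (SE 0.0903, adjusted p = 1.33e-08) and Irf9 by 0.51 (SE 0.0444, adjusted p = 5.17e-08) on the log2 scale. IRF9 is a part of the ISRE-binding complex. Socs1, a feedback inhibitor, was at -0.04 (SE 0.116, adjusted p = 0.766) and its groups overlapped. Among the pathway genes called at day 7, Ifnar1 was higher, and Tlr7, an RNA-sensing receptor, was at -0.22 (SE 0.0564, adjusted p = 0.0379). From day 7 to day 14 Irf9 fell by 0.24 on the log2 scale (adjusted p = 0.0205). Of the 32 genes limma-voom called 0 at day 14 and at day 28, with 1 and 4 at an unadjusted p under 0.05, against 5.40% and 4.00% of all genes.

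The interferon-inducible GTPases, a neighbouring class that interferon gamma also drives, gave 11 higher and 2 lower of 14 at day 1, against 34.7% and 34.6% of all genes. At day 7 0 of the 14 were higher and 1, Gbp7, was lower at -0.49 (SE 0.116, adjusted p = 0.0253), against 2.99% and 0.996% of all genes, with 6 at an unadjusted p under 0.05, against 16.4% of all genes. Of 15 immediate early genes, known to respond to tissue dissociation, 1 rose and 9 fell at day 1, against the same 34.7% and 34.6% of all genes.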

How the data were processed

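Microglia of 15 mice, enriched by CD45 selection, were sequenced with a droplet 3′ kit. The authors deposited UMI counts per gene and cell, mapped to mm10 with Cell Ranger (version 4.0.0 per the submitters' processing notes), with cluster numbers and the percent of mitochondrial UMIs per cell. The authors' paper names another version of Cell Ranger. These deposited counts were already filtered, to cells with at least 500 genes as the files show. Whether doublets were removed is not given in the sources used here, and no doublet caller was run. An alternative left out the 5% of cells with most UMIs.

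Counts were summed per mouse and, within clusters with at least 50 cells of a mouse, per mouse and cluster. Genes were filtered at a minimum count of 10, scaled by TMM (edgeR 4.0.16) and fitted with limma-voom (limma 3.58.1) over all 15 mice, with Benjamini-Hochberg adjustment over all genes tested and a threshold of 0.05. The scripts were tested on simulated data. The alternatives were edgeR's quasi-likelihood test, DESeq2 1.42.0, library size alone, no filter, the 2 groups of a comparison alone, the batch as a block, each mouse left out, 3 exclusions of cells, and thinning. Same-batch mice of different groups had deviations correlated at a mean of 0.104 (30 pairs, -0.216 to 0.367), and mice of different batches at -0.052 (60 pairs), and the labels give the number as a shared processing batch. Deviations were taken from the group mean of 3 mice, which ties the second mean to the first, so it is not a separate comparison.

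The 50 genes and the other lists were chosen with earlier results of these data known. The rule for named genes took 29 of them by role, the 3 highest and 3 lowest in each comparison, those called lower or not called at day 1, named parts of the pathway and its later calls, and a gene of the pathway list is not reported here. Levels in each mouse are left out for the genes lower at day 7 than at day 1, for the extremes of days 14 and 28, of day 14 against day 7 and of cluster 2, and for Ifnar2, Stat2, Irf9, Socs1 and Tlr7. Whether each count reads a gene or a near copy was judged from 90-base windows in the last 500 bases of GENCODE transcripts. Depth was 32341960 to 70307384 UMIs a mouse. Promoters came from RefSeq for GRCm38.p6.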

Additional observations from a re-analysis of the deposited data

Results flagged for a closer look

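The responses at different days were compared directly. Between day 1 and day 7 the level of 49 of the 50 genes differed, all lower at day 7, against 33.9% of all genes called lower. From day 7 to day 14, 14 genes differed, all lower at day 14, against 0.856% of all genes called lower. In the pathway list Ifnar1, a chain of the type I interferon receptor, changed in opposite directions, at -0.19 on day 1 and 0.21 on day 7 on the log2 scale, and the difference of 0.40 passed limma-voom with an adjusted p of 6.39e-06.

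Within cluster 2, in 4 genes all 3 day 1 mice lay below all 3 controls, while in cluster 0 or cluster 1 they lay above them, which was so in 1.09% of the 8477 genes tested in cluster 2 and another cluster. In cluster 2 as a whole the day 1 mice were all below the controls in 7 of the 50 genes, all above in 3 and overlapped in 40. No share of all genes stands beside these counts, so they are no result about these genes. In the 4 genes the log2 fold changes in cluster 2 were -1.01 for Ifit3b, -0.82 for Mx1, -0.42 for Parp9 and -0.99 for Slfn5. Of the 47 genes that passed the filter 9 were called lower in cluster 2, where 19.3% of all genes were, so the number of lower calls does not stand out, and the difference between clusters was not tested. By the test, 6 of the 45 genes so tested were called lower in cluster 2 and higher in cluster 0 or 1, against 0.248% of all genes. These were the same 4 with Ddx58 (-0.67 in cluster 2, 0.44 in cluster 1) and Parp14 (-0.66 in cluster 2, 0.69 in cluster 1). Higher calls went to 18 of 47 of the listed genes in cluster 0 and 30 of 43 in cluster 1, against 3.77% and 6.36% of all genes. The shares of 1.09% and 0.248% are thus no like baseline for the listed genes. The control values in cluster 2 rest on 76 to 165 cells a mouse. They include control mouse 1, and the falls are not given without that mouse. The clusters were formed on expression that includes these genes, so this pattern is a description.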

How the results depend on the processing

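Values called at day 1 held their direction in all alternatives apart from Slfn8, at -0.045 with library size alone, where Ifnar2 also turned, to -0.104 at day 1 and 0.0165 from day 1 to day 7. The day 1 median was 2.63 with library size alone and 3.06 without cells with Mki67 or Top2a, and 2.71 to 3.06 with 1 mouse left out. The median change from day 1 to day 7 was -2.29 without those cells and -2.27 to -2.12 with 1 mouse left out. At day 7, 21 genes were called without the cells with most UMIs and 6 to 27 with 1 mouse left out, with medians of 0.37 to 0.91. With 1 mouse left out the median was -0.26 to 0.037 at day 14 and -0.21 to 0.065 at day 28, above 0 in both only without control mouse 1. From day 7 to day 14 DESeq2 called 27, and leaving out a mouse gave 3 to 8. The ranges of calls within clusters with 1 mouse left out were 7 to 19 in cluster 0 at day 7, 17 to 29 and 7 to 12 in cluster 1 at days 1 and 7, and 1 to 4 and 0 to 2 in cluster 2. In cluster 2 edgeR called 1 at day 1. Without thinning the shares of cells with at least 10 of the genes were 8.85%, 57.8%, 13.7%, 8.92% and 8.72% in the controls and at days 1, 7, 14 and 28. The cause of these shifts was not tested.

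With the batch as a block for pairing, 18 genes were called at day 7 and 19 from day 7 to day 14, and 49 at day 1, and the block moved no count of calls by over 1.5 times. Of the alternative values of single genes 5412 kept their side of the threshold, 91 gained a call, 151 lost one and 3 reversed. Among those 5412 were 176 values that were called in neither setting and changed sign. Cluster 2 had under 200 cells in every control mouse, so the stricter minimum of 200 cells could not be fitted there. Sparse genes such as Oas3 and Ifi44, with 53 and 40 control UMIs, limit what late differences could be seen.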
